A study of Mus musculus with 103 samples.

Results

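The 12 libraries described here are the hippocampi of 4 homozygous TASTPM mice and 8 wild-type mice, all male and 8 months old, taken by the genotype and age in the sample labels with 1 library per mouse. The other 91 libraries of the series are of other genotypes or ages. The values of homozygous mice are given in the order of mice 451, 452, 453 and 454, and those of wild-type mice as the lowest, the median and the highest. Homozygous TASTPM mice carry on both alleles a human APP transgene with the Swedish double mutation and a second transgene, both driven by the Thy1 promoter, which is active in neurons. The 8 wild-type mice carry neither and share the C57BL/6J background, and the study describes its controls as littermates from the parental lines. Hemizygous TASTPM mice of 8 months (n = 4), and homozygous (n = 3) and wild-type mice (n = 7) of 18 months, serve below as side comparisons.

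Amyloid-beta is cut from the amyloid precursor protein and aggregates into plaques. Microglia, the resident macrophages of the brain, gather at plaques and switch on genes for phagocytosis, lysosomal digestion and lipid handling, and astrocytes around plaques enlarge their skeleton of intermediate filaments. Neurons signal through synapses and through neuropeptides, which are packed in dense-core vesicles and are abundant in the inhibitory interneurons of the hippocampus. In bulk tissue, fewer cells of a type and less RNA per cell cannot be told apart.

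Expression is given in TPM, the length-scaled share of each gene among the transcripts of a library, which keeps no record of depth, so the counting error of a single value is unknown. Differences are homozygous minus wild-type on the log2(TPM + 0.5) scale, which understates the change of genes near 0, and come from limma's moderated test in 1 fit of all libraries of the series. A gene passed at a Benjamini-Hochberg adjusted p under 0.05 over the 21864 genes that averaged 0.5 TPM or more in either group. Homozygous mice had 1287 genes that rose, 5.89% of those tested, and 1222 that fell, 5.59%. The 4 homozygous values lay all above the 8 wild-type values in 827 genes (3.78%) and all below them in 415 (1.9%). The median difference over all genes tested was -0.03.

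Of the 12 libraries, 3 stood apart in regional composition, and more of the lower than of the higher calls were lost without them. A score per library took the mean log2 level of 12 genes of neighbouring regions minus that of 20 genes of hippocampal excitatory neurons, each relative to the median of the wild-type libraries. A score over 1.5 set a library apart. The library labelled homozygous mouse 452 scored 5.35, wild-type mouse 1462 scored 2.62 and wild-type mouse 2342 scored 2.18, while the other 9 libraries scored between -0.40 and 0.92. Without the 11 libraries of the series set apart in this way, 1156 genes rose (5.29%) and 339 fell (1.55%), and the median over all genes was 0.03. Of the 1287 higher genes 995 also passed without them, against 271 of the 1222 lower genes, and no gene passed in opposite directions. Most groups of genes below are therefore given both with all libraries and without those set apart.

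The genes that report the transgenes come before the other genes. App, which encodes the amyloid precursor protein (GRCm38 chromosome 16, 84949685 to 85173766), was at 2043, 532, 2207 and 1925 TPM in the homozygous mice, against a lowest value of 459, a median of 478 and a highest value of 580 TPM in wild-type mice. The library labelled homozygous mouse 452 thus lay within the wild-type range of this gene, and the other 3 lay far above it. Whether its dissection or its label has a part in this was not tested. Thy1, the gene of a neuronal surface protein whose promoter drives the transgenes (chromosome 9, 44043384 to 44048579), was at 4021, 1791, 4590 and 3943 TPM in homozygous mice, against 406, 435 and 462 TPM (lowest, median, highest) in wild-type mice. Here all 4 homozygous libraries, mouse 452 included, lay above every wild-type library. The log2 difference was 1.58 ± 0.21 for App (SE, adjusted p = 3.6e-09) and 2.96 ± 0.24 for Thy1 (adjusted p = 5.8e-18), and 2.11 and 3.28 without the libraries set apart. A further fit used only the 9 libraries of the 3 lane numbers that hold both groups, mouse 452 included, with no lane term. Within these shared lane numbers App did not pass (1.60, adjusted p = 0.079).

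In the library labelled homozygous mouse 452, genes of striatal neurons were high and genes of hippocampal fields were low. Penk, which encodes the opioid peptide precursor proenkephalin, was at 30.9, 1437, 29.9 and 30.3 TPM in homozygous mice, against 28.1, 44.9 and 161 TPM in wild-type mice. Adora2a, an adenosine receptor of striatal projection neurons, was at 0.989, 181, 1.01 and 0.968 TPM in homozygous mice, against 0.546, 0.869 and 14.6 TPM in wild-type mice. Prox1, a transcription factor of dentate granule cells, was at 22.2, 4.08, 34.5 and 20.9 TPM in homozygous mice, against 3.52, 14.2 and 25.5 TPM in wild-type mice. In these genes mouse 452 stood alone in its group, and the 2 wild-type libraries set apart were shifted the same way. Adora2a and Prox1 are genes of the score that set these libraries apart, so their shift is part of that score. Penk is not a gene of the score. None of the 12 neighbouring-region genes passed limma's test, and none of the 20 excitatory neuron genes (3 and 1 had an unadjusted p under 0.05). Genes of the choroid plexus, which lies beside the hippocampus, varied widely within both groups. Ttr, the transthyretin gene, was at 12278, 29.7, 19.5 and 15.9 TPM in homozygous mice, against 12.2, 309 and 4386 TPM in wild-type mice, and none of the 12 choroid plexus genes passed or had an unadjusted p under 0.05.

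**Figure D1:**
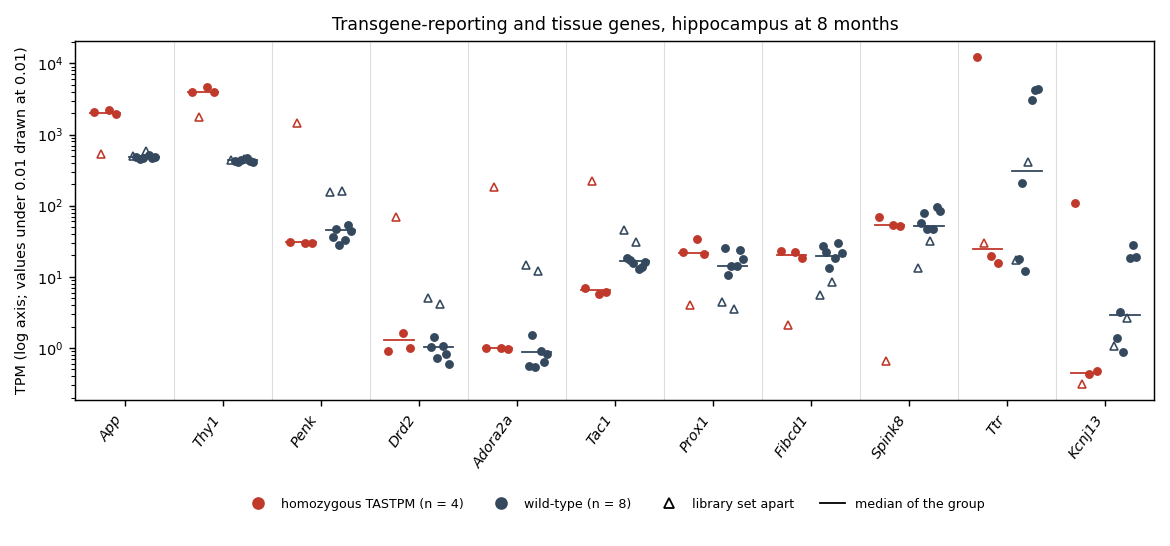
TPM per library on a log axis for genes that report the transgenes (App, Thy1), striatal neurons (Penk, Drd2, Adora2a, Tac1), hippocampal fields (Prox1, Fibcd1, Spink8) and choroid plexus (Ttr, Kcnj13), with homozygous TASTPM mice left of wild-type mice for each gene, triangles for libraries set apart and a bar at the median of the group. The library labelled homozygous mouse 452 is at 532 TPM of App and 1437 TPM of Penk, while its 3 group mates are at 1925 to 2207 and 29.9 to 30.9 TPM. Drd2, Adora2a, Prox1, Fibcd1 and Spink8 are genes of the score that set libraries apart.

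Microglial genes carried the largest differences. Cst7, a cathepsin inhibitor that plaque microglia switch on (chromosome 2, 150570415 to 150578944), was at 82.6, 143, 138 and 179 TPM in homozygous mice, against 0.152, 0.524 and 1.09 TPM in wild-type mice. No value of the groups came near another, and the log2 difference was 6.96 ± 0.30 (SE, adjusted p = 4.7e-33). Of 30 plaque microglia genes, 27 rose and none fell, with a median difference of 1.67, and 25 rose without the libraries set apart. Clec7a, a receptor for fungal glucans, rose by 5.77. Tyrobp, the signalling adaptor of Trem2, had 473, 772, 669 and 754 TPM in homozygous mice, against 57.1, 71.7 and 90.8 TPM in wild-type mice. Trem2 itself, a lipid-sensing receptor, rose by 3.12 and Ctsd, the lysosomal protease cathepsin D, by 2.41 (adjusted p = 1.4e-24 and 3.6e-30). Apoe, a lipoprotein that astrocytes and microglia secrete, was at 4141, 4851, 4584 and 4733 TPM in homozygous mice, against 2540, 2776 and 3161 TPM in wild-type mice, a difference of 0.70 that passed in all settings but quantile normalization.

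Homeostatic microglia genes rose with them. Of 22 tested, 20 rose and none fell (median 1.32), and 19 did so without the libraries set apart. Csf1r, the receptor on which microglia depend for survival, rose by 1.79, and Cx3cr1, the fractalkine receptor, was at 46.0, 58.9, 59.3 and 62.9 TPM in homozygous mice, against 13.8, 15.6 and 18.9 TPM in wild-type mice. Tmem119, a surface marker that sets microglia apart from other macrophages, rose by 1.17 (adjusted p = 6.4e-11), and P2ry12, the ADP receptor that guides their processes, rose by 0.96 (adjusted p = 4.6e-09). The summed level of the whole list was 949 to 1351 TPM in homozygous mice and 418 to 482 TPM in wild-type mice.

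Complement, antigen presentation and chemokine genes followed. C1qa, a chain of the first complement component, had 248, 425, 313 and 370 TPM in homozygous mice, against 33.8, 45.8 and 59.7 TPM in wild-type mice (log2 difference 2.86 ± 0.13, SE, adjusted p = 1.3e-32). Of 20 complement genes 12 rose (median 1.33), of 16 class I presentation genes 14 (median 1.27) and of 19 chemokine and cytokine genes 12 (median 1.03), and none of the 3 lists held a gene that fell. Without the libraries set apart 11, 15 and 11 of them rose, and 1 chemokine gene, Cx3cl1, fell (-0.27, adjusted p = 0.038). Ccl3 and Ccl4, chemokines that attract monocytes, rose by 4.76 and 4.02. In class II presentation 3 of 10 genes rose, in either fit: H2-Ob (2.25), H2-Oa (1.90) and H2-DMb1 (1.19), which encode chains that steer peptide loading. The class II invariant chain gene Cd74 had a difference of 1.38 (adjusted p = 0.061) and H2-Aa, a chain of the presenting molecule, 0.37 (adjusted p = 0.74), and neither passed. Of 29 lysosomal genes 18 rose (median 0.47), and 19 without the libraries set apart, with Ctss, cathepsin S, at 2.53 and Grn, the progranulin gene, at 1.42. Within the shared lane numbers 12 of the 29 rose.

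Markers of other immune cells gave few calls. None of 8 T cell genes passed limma (3 had an unadjusted p under 0.05), and their summed level over 14 genes was 10.02 to 77.1 TPM in homozygous mice and 9.0 to 52.1 TPM in wild-type mice. Of 10 genes of border macrophages, monocytes and neutrophils, Ms4a7 alone passed (0.79, adjusted p = 0.025), and it did not without the libraries set apart (adjusted p = 0.082). It was also lost without any single one of 5 libraries, with an adjusted p of 0.054 without mouse 452 and 0.095 without homozygous mouse 451. The summed level of this list over 16 genes was 8.4 to 13.1 TPM in homozygous mice and 8.1 to 14.7 TPM in wild-type mice. None of 18 endothelial genes passed (5 had an unadjusted p under 0.05), and of 12 genes of pericytes and smooth muscle, Notch3 (0.53) and Pdgfrb (0.33) did. Notch3 was lost without mouse 452 (0.50, adjusted p = 0.062) and Pdgfrb without all libraries set apart (0.26, adjusted p = 0.21).

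Interferon-stimulated genes rose in 28 of 32 cases, with a median of 1.19 and 27 without the libraries set apart. Oas1a, a sensor of double-stranded RNA, was at 3.001, 3.16, 3.89 and 5.47 TPM in homozygous mice, against 0.323, 0.415 and 0.776 TPM in wild-type mice (log2 difference 2.16 ± 0.21, SE, adjusted p = 3.1e-14). Ifitm3, which blocks viral entry, rose by 1.96, and Ifit3 by 1.76. Ifit3 has a near-identical copy, Ifit3b, which rose by 1.29, so the split of reads between the pair is uncertain. Bst2, a membrane tether of budding viruses, was at 46.5, 39.2, 28.9 and 27.8 TPM in homozygous mice, against 4.63, 7.82 and 14.8 TPM in wild-type mice.

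Interferon-stimulated genes are known to carry an interferon-stimulated response element before their start. The letters GAAA, any 2 bases and then GAAACT were searched on both strands in RefSeq promoters of 300 bases (GRCm38.p6, ending 50 bases after the annotated start), and 0.271% of 32851 promoters held them. Of the 24 tested genes of the interferon list with a promoter in the table, 11 held them (45.8%). Of all 13044 tested genes with a promoter, 0.353% did. Of the 11 interferon genes 10 rose, all but Ddx58 (0.01, adjusted p = 0.98). That share is near the 28 of 32 that rose in the whole list, so it does not link the letters to the rise. Of 25 plaque microglia genes with a promoter none held these letters. The promoters of 3 genes that rose are shown with the match in capitals, Oas1a on chr5:120907476-120907775 (minus strand), Ifit3 on chr19:34583279-34583578 (plus strand) and Bst2 on chr8:71537423-71537722 (minus strand).
Oas1a: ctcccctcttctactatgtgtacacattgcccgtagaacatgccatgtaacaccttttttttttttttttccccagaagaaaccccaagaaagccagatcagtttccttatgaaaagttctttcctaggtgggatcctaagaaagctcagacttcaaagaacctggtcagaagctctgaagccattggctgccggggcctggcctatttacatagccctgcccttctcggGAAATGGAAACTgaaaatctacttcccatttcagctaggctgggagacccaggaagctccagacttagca
Ifit3: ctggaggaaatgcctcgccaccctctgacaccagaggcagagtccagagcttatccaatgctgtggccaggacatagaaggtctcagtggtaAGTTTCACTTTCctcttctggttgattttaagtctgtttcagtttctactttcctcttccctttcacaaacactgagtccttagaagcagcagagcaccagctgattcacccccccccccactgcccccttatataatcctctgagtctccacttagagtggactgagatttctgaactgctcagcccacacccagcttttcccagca
Bst2: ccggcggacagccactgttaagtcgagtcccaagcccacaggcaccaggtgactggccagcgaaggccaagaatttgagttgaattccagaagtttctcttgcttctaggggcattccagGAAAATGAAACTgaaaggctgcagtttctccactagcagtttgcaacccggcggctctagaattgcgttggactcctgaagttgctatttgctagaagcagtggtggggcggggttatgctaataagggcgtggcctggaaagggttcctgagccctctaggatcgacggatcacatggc
The match starts 20 bases before the annotated start in Oas1a, 158 in Ifit3 and 130 in Bst2. In Ifit3 it lies on the opposite strand, and the search says nothing of a factor's binding.

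Outside the immune lists, 1001 genes rose, 507 of them with all 4 homozygous mice above all wild-type mice. Gfap, the intermediate filament of reactive astrocytes (chromosome 11, 102887336 to 102900912), had the largest difference of the genes on no immune list named by rule. It was at 876, 771, 1280 and 1236 TPM in homozygous mice, against 56.1, 125 and 174 TPM in wild-type mice. That is a mean of 1041 ± 255 TPM (SD, n = 4) in homozygous mice and 115 ± 39.9 TPM (SD, n = 8) in wild-type mice, and a log2 difference of 3.22 ± 0.20 (SE, adjusted p = 1.4e-23). Vim, the filament protein vimentin, was at 116, 115, 91.6 and 146 TPM in homozygous mice, against 19.6, 24.7 and 38.9 TPM in wild-type mice. Serpina3n, a secreted protease inhibitor, was at 96.5, 82.2, 132.7 and 132.6 TPM in homozygous mice, against 8.08, 20.2 and 31.0 TPM in wild-type mice. In these 3 genes the groups were far apart, and mouse 452 had the lowest or next to lowest homozygous value.

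Of 20 reactive astrocyte genes 15 rose and none fell (median 1.30), and 14 rose without the libraries set apart (median 1.39). Aspg, an asparaginase, was at 34.8, 20.6, 38.6 and 38.3 TPM in homozygous mice, against 3.48, 6.04 and 8.38 TPM in wild-type mice. S1pr3, a receptor for sphingosine 1-phosphate, was at 5.74, 3.56, 7.36 and 9.38 TPM in homozygous mice, against 1.88, 2.18 and 2.75 TPM in wild-type mice (log2 difference 1.28 ± 0.12, SE, adjusted p = 1.7e-14). Lcn2, the iron-binding lipocalin, rose by 1.86, Osmr, a receptor of oncostatin M, by 1.61 and Cd44, the hyaluronan receptor, by 1.21. Cp, Hspb1, S100a10, Emp1 and Fkbp5 of the same list did not pass.

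General astrocyte genes moved less. Of 19 genes of astrocyte identity 7 rose (median 0.24), and 7 without the libraries set apart. Without mouse 452 alone 5 rose, and within the shared lane numbers 2 did. Aqp4, the water channel of astrocyte endfeet, was at 75.6, 49.8, 98.2 and 87.9 TPM in homozygous mice, against 24.9, 34.2 and 50.7 TPM in wild-type mice. Mouse 452 lay inside the wild-type range there, and the difference was 1.15 ± 0.14 (SE, adjusted p = 8.4e-10). Mlc1, a membrane protein of the endfeet, rose by 0.60, and Sox9, the transcription factor of the astrocyte lineage, by 0.59. Sox9 was lost within the shared lane numbers (0.50, adjusted p = 0.17). The glutamate transporter gene Slc1a2, the connexin genes Gja1 and Gjb6 and the enzyme genes Aldh1l1 and Glul did not pass. The astrocyte list summed to 3123 to 3464 TPM in homozygous mice and 2740 to 3275 TPM in wild-type mice, so the groups overlapped.

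The 12 genes of largest difference on no immune list, taken by a fixed rule, were Gfap (3.22), Wfdc17 (3.16), Mir6975 (3.01), Thy1 (2.96), Lgals3bp (2.86), Serpina3n (2.63), Hcar2 (2.61), Olfr111 (2.49), Pdcd1 (2.41), Aspg (2.40), Cxcl5 (2.33) and Oas1g (2.31). Several of them are known from immune cells although no list held them: Pdcd1 encodes the checkpoint receptor PD-1, Cxcl5 a chemokine and Oas1g a sensor of the Oas family. Hcar2, a receptor for hydroxybutyrate and nicotinic acid, was at 1.76, 2.27, 2.78 and 4.36 TPM in homozygous mice, against 0, 0 and 0.0560 TPM (lowest, median, highest) in wild-type mice. Mir6975 is a microRNA locus within the gene Ddx39b, was listed at 0 in 7 of 8 wild-type libraries, and its value in poly(A) libraries is uncertain.

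Other genes were picked after their values were seen, and the cell types in which they rose were not tested. Slc14a1, a urea transporter of astrocytes, was at 15.8, 14.4, 19.4 and 19.6 TPM in homozygous mice, against 2.42, 5.23 and 7.58 TPM in wild-type mice. Pdpn, the membrane glycoprotein podoplanin, rose by 1.84 and Itgb5, an integrin subunit, by 1.56. Tgfbr2, a receptor of TGF-beta, was at 11.1, 9.67, 10.7 and 12.9 TPM in homozygous mice, against 2.76, 3.26 and 3.65 TPM in wild-type mice. Lif, a cytokine that signals to glia, rose by 1.67, A2m, the protease trap alpha-2-macroglobulin, by 2.20, Ucp2, a mitochondrial carrier, by 1.86 and Plce1, a phospholipase C, by 1.51. In the matrix list, Lox, the collagen cross-linking enzyme lysyl oxidase, was at 0.801, 0.969, 0.967 and 1.28 TPM in homozygous mice, against 0.0662, 0.146 and 0.406 TPM in wild-type mice (log2 difference 1.18 ± 0.15, SE, adjusted p = 2.5e-09). In all of these the homozygous mice lay above every wild-type mouse.

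**Figure D2:**
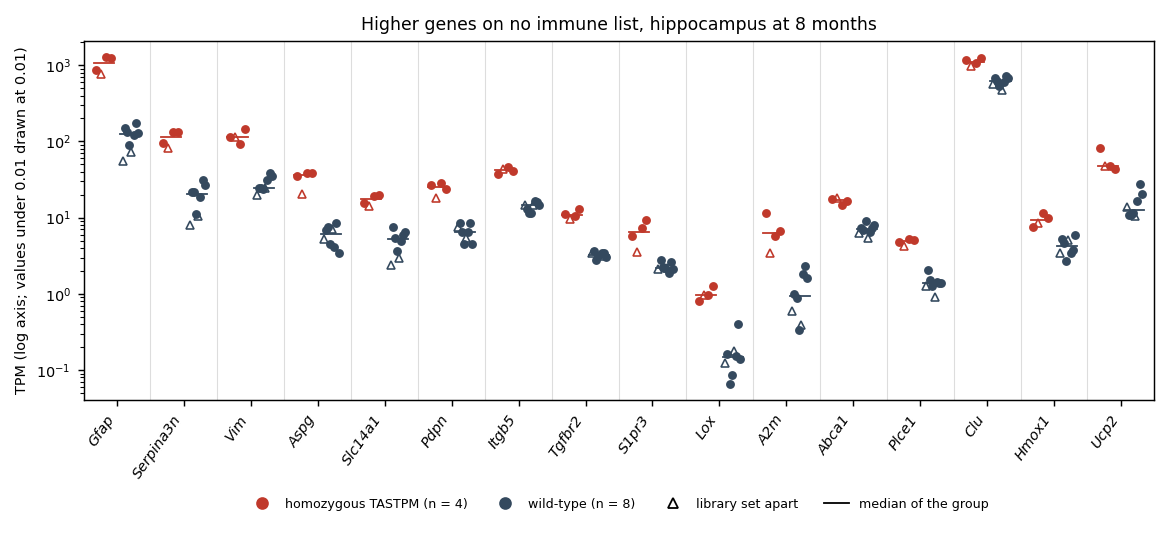
TPM per library on a log axis for 16 higher genes on no immune list, with homozygous TASTPM mice left of wild-type mice for each gene, triangles for libraries set apart and a bar at the median of the group. The groups do not overlap in any of the 16 genes, from Lox at 0.801 to 1.28 TPM in homozygous mice and at most 0.406 TPM in wild-type mice to Gfap at 771 to 1280 TPM in homozygous mice and at most 174 TPM in wild-type mice.

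Genes of lipid handling rose in part. Ch25h, which makes 25-hydroxycholesterol, was at 5.73, 8.71, 4.40 and 13.1 TPM in homozygous mice, against 0.381, 0.517 and 1.05 TPM in wild-type mice (log2 difference 2.85 ± 0.29, SE, adjusted p = 2.0e-13). Clu, the secreted chaperone clusterin, was at 1157, 973, 1059 and 1246 TPM in homozygous mice, against 468, 614 and 713 TPM in wild-type mice, a difference of 0.87. Abca1, which loads lipid onto Apoe, rose by 1.2. Of 21 genes of lipid transport and storage 8 rose and 1 fell (median 0.36), and 6 rose without the libraries set apart. Within the shared lane numbers 4 of the 21 rose.

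The count of higher genes of cholesterol synthesis grew when libraries were left out. With all libraries 4 of 24 genes rose (median 0.20), and without those set apart 13 did (median 0.45). Within the shared lane numbers, where mouse 452 was kept, none of the 24 rose. Fdps, farnesyl diphosphate synthase, was at 98.1, 53.9, 98.2 and 88.6 TPM in homozygous mice, against 56.9, 64.1 and 82.3 TPM in wild-type mice. Sqle, squalene epoxidase, was at 41.2, 14.6, 37.6 and 37.9 TPM in homozygous mice, against 25.2, 27.4 and 30.4 TPM in wild-type mice. In both, mouse 452 was below all wild-type mice and the other 3 homozygous mice were above all of them. The difference of Fdps was 0.34 (adjusted p = 0.025) with all libraries and 0.59 (adjusted p = 4.3e-06) without those set apart, and that of Sqle 0.15 (adjusted p = 0.54) and 0.54 (adjusted p = 0.00090). With mouse 452 kept, Fdps was lost without homozygous mouse 451, 453 or 454 (adjusted p = 0.16, 0.17 and 0.089). The part of its regional composition in these values was not tested.

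Iron genes included Hmox1, the haem-degrading enzyme, which rose by 1.06, and Ftl1, the ferritin light chain, which rose by 0.69, and 3 of 12 rose in all, in either fit. Ribosomal protein genes rose in 6 of 20 cases by small amounts (median 0.16), in 3 without the libraries set apart and in 1 within the shared lane numbers. Of 17 cell cycle genes 5 rose (median 0.35), 2 without the libraries set apart and none within the shared lane numbers. Of 20 myelin genes Trf, transferrin, alone passed (0.95), and it did not without the libraries set apart (0.72, adjusted p = 0.12). Of 12 genes of oligodendrocyte precursors Neu4, a sialidase, alone passed (0.41), where 5.89% of all genes rose. Neu4 was lost with lane as a covariate (0.34, adjusted p = 0.064) and within the shared lane numbers (0.34, adjusted p = 0.15). Of 14 fibroblast and collagen genes none passed and 2 had an unadjusted p under 0.05, at a median of -0.47.

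Genes of interneurons and neuropeptides were among the lower genes. Cort, which encodes cortistatin, a peptide of a subset of interneurons (chromosome 4, 149125034 to 149126763), was at 4.57, 4.68, 1.92 and 3.24 TPM in homozygous mice, against 11.3, 19.5 and 29.4 TPM in wild-type mice. Its log2 difference was -2.31 ± 0.47 (SE, adjusted p = 0.00016), and -2.44 without the libraries set apart (adjusted p = 4.7e-11). Sst, the gene of somatostatin, which marks interneurons that inhibit dendrites (chromosome 16, 23889573 to 23890958), was at 257, 304, 163 and 226 TPM in homozygous mice, against 429, 550 and 888 TPM in wild-type mice. The difference was -1.30 ± 0.25 (SE, adjusted p = 6.6e-05), and -1.40 without the libraries set apart (adjusted p = 1.7e-05). Both genes were lower in every homozygous mouse, mouse 452 included, than in any wild-type mouse.

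Crhbp, which binds and sequesters corticotropin-releasing hormone, was at 8.13, 4.04, 3.80 and 8.63 TPM in homozygous mice, against 16.3, 21.1 and 23.5 TPM in wild-type mice. It fell by 1.75 on the log2 scale (SE 0.24, adjusted p = 9.2e-09). Pnoc, the precursor of nociceptin, was at 3.64, 1.24, 2.18 and 2.27 TPM in homozygous mice, against 4.37, 5.06 and 7.58 TPM in wild-type mice. Pvalb, the calcium buffer parvalbumin of fast-spiking interneurons, was at 40.0, 43.2, 29.0 and 49.7 TPM in homozygous mice, against 51.3, 68.3 and 135 TPM in wild-type mice. The groups did not overlap in these 3 genes, but Pvalb fell by 0.91 (adjusted p = 0.0068) and was lost without homozygous mouse 453 (-0.76, adjusted p = 0.056).

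Of 19 genes of interneurons and GABA signalling 7 fell and none rose (median -0.37), and 6 fell and 2 rose without the libraries set apart (median -0.29). Vip, the peptide of another interneuron class, fell by 1.27 with all libraries (adjusted p = 0.017) and had -0.71 without those set apart (adjusted p = 0.10). Gad1, which makes GABA, and Slc32a1, which loads it into vesicles, passed only without them, at -0.42 and -0.50 (adjusted p = 0.0011 and 0.023). Gad2, Reln, Lhx6 and Calb2 did not pass in either fit. Within the lane numbers that hold both groups (9 libraries), 2 genes of the list fell. The summed level of the list was 912 to 1049 TPM in homozygous mice and 1253 to 1899 TPM in wild-type mice.

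Neuropeptide and activity-regulated secreted genes had 9 of 20 lower and 1 higher (median -0.75), and the counts were the same without the libraries set apart (median -0.49). Pcsk1, the convertase that cuts peptide precursors, was at 5.55, 4.199, 4.30 and 6.67 TPM in homozygous mice, against 8.29, 13.5 and 19.4 TPM in wild-type mice. Adcyap1, the gene of the peptide PACAP, was at 1.90, 0.706, 1.68 and 2.32 TPM in homozygous mice, against 2.91, 7.34 and 11.5 TPM in wild-type mice. Vgf, a secreted precursor induced by activity and neurotrophins, was at 53.9, 64.6, 39.9 and 48.2 TPM in homozygous mice, against 71.4, 86.8 and 116 TPM in wild-type mice. All 3 were lower in every homozygous mouse than in any wild-type mouse. The log2 difference was -1.29 in Pcsk1, -1.81 in Adcyap1 and -0.83 in Vgf (adjusted p = 4.9e-05, 0.00058 and 9.9e-06). Pcsk1, Adcyap1 and Vgf passed without the libraries set apart too, at -1.13, -1.33 and -0.86. The 1 gene that rose was Ntrk2, the receptor of the growth factor BDNF (0.30, adjusted p = 0.018). Within the shared lane numbers 5 of the 20 genes fell and none rose.

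Several peptide genes turned on the library labelled homozygous mouse 452. Npy, neuropeptide Y, was at 75.9, 199.97, 46.4 and 69.5 TPM in homozygous mice, against 124, 168 and 391 TPM in wild-type mice, and Tac1, the precursor of substance P, at 6.95, 225, 5.75 and 6.14 TPM in homozygous mice, against 13.05, 16.7 and 45.5 TPM in wild-type mice. In both, 3 homozygous mice lay below every wild-type mouse and mouse 452 did not. The difference of Npy was -1.1 (adjusted p = 0.036) with all libraries and -1.27 (adjusted p = 3.0e-07) without those set apart. That of Tac1 was -0.30 (adjusted p = 0.75) and -1.25 (adjusted p = 0.00029). Npy was also lost without any single one of 5 libraries, the 3 other homozygous mice and both wild-type mice set apart, at an adjusted p of up to 0.20 without mouse 453. In Bdnf mouse 452 was the lowest, at 12.6, 1.79, 10.9 and 9.83 TPM in homozygous mice, against 10.9, 14.2 and 19.6 TPM in wild-type mice, and fell with all libraries (-0.93, adjusted p = 0.0086) but not without those set apart (-0.41, adjusted p = 0.17).

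Peptide genes such as Sst are known targets of the cyclic AMP pathway, through the element TGACGTCA. These letters, which read the same on both strands, were in 1.79% of all promoters. Counted by gene, if any promoter of it held them, they were in 3.25% of the 13044 genes tested with a promoter. Among genes with a promoter in the table, the letters were in 1.2% of the 914 called higher and 6.13% of the 881 called lower with all libraries. Of all 1222 lower genes only 271 also passed without the libraries set apart, and the share among those was not counted. A link of the letters to the fall was not tested. The letters were in 4 of 15 peptide genes with a promoter (26.7%). Of these Sst and Pcsk1 fell, and Chgb fell with all libraries only (-0.59, adjusted p = 0.046). Scg2 passed only without those set apart (-0.45, adjusted p = 0.0030). Scg2, secretogranin II, was at 72.3, 66.8, 68.1 and 68.5 TPM in homozygous mice, against 83.4, 94.7 and 118 TPM in wild-type mice. Shown with the match in capitals are the promoters of Sst on chr16:23890795-23891094 (minus strand), Pcsk1 on chr13:75089607-75089906 (plus strand) and Scg2 on chr1:79439977-79440276 (minus strand).
Sst: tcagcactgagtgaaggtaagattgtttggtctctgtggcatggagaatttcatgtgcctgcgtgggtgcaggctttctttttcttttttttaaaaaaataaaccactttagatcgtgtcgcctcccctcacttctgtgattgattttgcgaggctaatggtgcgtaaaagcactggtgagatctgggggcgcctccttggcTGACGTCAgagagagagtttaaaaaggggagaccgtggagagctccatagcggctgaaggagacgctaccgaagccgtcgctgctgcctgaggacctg
Pcsk1: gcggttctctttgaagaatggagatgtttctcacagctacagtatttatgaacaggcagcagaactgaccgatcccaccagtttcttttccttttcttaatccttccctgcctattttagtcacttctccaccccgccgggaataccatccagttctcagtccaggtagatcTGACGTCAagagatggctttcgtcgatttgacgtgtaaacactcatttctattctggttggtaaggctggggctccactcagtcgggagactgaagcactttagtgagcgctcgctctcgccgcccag
Scg2: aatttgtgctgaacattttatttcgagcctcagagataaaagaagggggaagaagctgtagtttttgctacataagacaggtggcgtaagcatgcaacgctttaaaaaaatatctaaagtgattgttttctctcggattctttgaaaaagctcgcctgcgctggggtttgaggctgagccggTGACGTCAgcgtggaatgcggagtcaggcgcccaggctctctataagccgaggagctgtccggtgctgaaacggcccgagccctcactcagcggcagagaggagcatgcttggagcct
The match starts 48, 78 and 68 bases before the annotated start in Sst, Pcsk1 and Scg2. It is a description of the sequence and was not tested as a site.

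Immediate early genes, which neurons transcribe within minutes of firing, had a median of -0.74 over 24 genes, and 5 fell and none rose. Without the libraries set apart 7 fell (median -0.62). Egr1, a zinc finger transcription factor, was at 36.1, 61.4, 21.6 and 41.5 TPM in homozygous mice, against 53.9, 85.9 and 172 TPM in wild-type mice, and the groups overlapped only through mouse 452. Egr1 fell by 1.32 (SE 0.36, adjusted p = 0.0065), but was lost without homozygous mouse 453 (-1.06, adjusted p = 0.067). Nr4a1, a nuclear receptor, had -1.17 (adjusted p = 0.018) and -0.89 without mouse 453 (adjusted p = 0.13). Fos (-1.03, adjusted p = 0.050), Arc (-1.06, adjusted p = 0.086) and Npas4 (-0.83, adjusted p = 0.10) did not pass. Without the 2 wild-type libraries set apart, and with mouse 452 kept, 1 gene of this list fell. Within the shared lane numbers none of the 24 fell.

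The count of lower presynaptic genes depended on mouse 452. Of 20 genes 8 fell and none rose with all libraries (median -0.29), and without those set apart 1 fell (median -0.10). That gene was Snap25, which drives vesicle fusion, at 1354, 739, 1476 and 1309 TPM in homozygous mice, against 1478, 1790 and 2513 TPM in wild-type mice. Its difference was -0.66 with all libraries (limma, adjusted p = 2.1e-05) and -0.32 without those set apart (adjusted p = 0.027), and mouse 452 was by far the lowest. Syp, the vesicle protein synaptophysin, had -0.52 (adjusted p = 0.0055) and -0.17 (adjusted p = 0.55). Of 23 glutamate receptor and postsynaptic genes 3 fell (Gria3, Gria4 and Grm3, median of the list -0.07), and 2 without the libraries set apart (median 0.11). Of 24 voltage-gated channels 4 fell (median -0.15), against 2 without the libraries set apart (median 0.02) and 1 without mouse 452 alone. Gria3, an AMPA receptor subunit, had -0.50 (adjusted p = 0.0051), and -0.38 without mouse 452 alone (adjusted p = 0.086). Within the shared lane numbers no gene of the presynaptic, glutamate receptor and channel lists fell.

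Genes of the excitatory fields gave no calls with all libraries. None of 12 dentate granule cell genes (median 0.14) and none of 12 CA pyramidal cell genes (median -0.37) passed, and 0 and 2 of them had an unadjusted p under 0.05. Mpped1, a gene of CA pyramidal cells, was at 57.5, 27.4, 40.4 and 59.4 TPM in homozygous mice, against 64.7, 84.2 and 89.8 TPM in wild-type mice, and passed only without the libraries set apart (-0.62, adjusted p = 0.017). Vsnl1, the neuronal calcium sensor visinin-like 1, was among the 16 largest falls of genes whose groups did not overlap and that met the naming rule, at 238, 79.6, 187 and 248 TPM in homozygous mice, against 285, 370 and 475 TPM in wild-type mice. It had -1.14 (adjusted p = 1.0e-08), -0.67 without the libraries set apart (adjusted p = 0.00041) and -1.14 within the shared lane numbers (adjusted p = 0.13). Of 11 genes of adult neurogenesis 2 fell, Stmn1 (-0.99) and Tubb3 (-0.47), which mature neurons express too, and 1 without the libraries set apart. None of the 11 fell within the shared lane numbers.

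**Figure D3:**
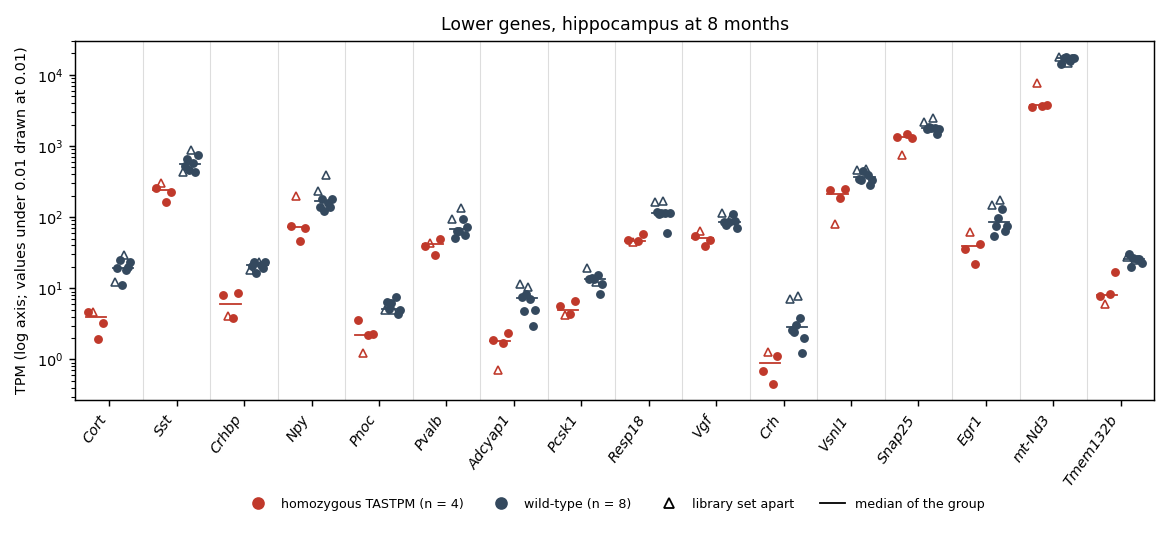
TPM per library on a log axis for 16 lower genes, with homozygous TASTPM mice left of wild-type mice for each gene, triangles for libraries set apart and a bar at the median of the group. In Cort, Sst, Crhbp, Pcsk1 and mt-Nd3 all 4 homozygous values lie below all 8 wild-type values, while in Npy and Egr1 the library labelled mouse 452 lies within the wild-type range, at 199.97 and 61.4 TPM.

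Genes of the respiratory chain and ATP synthase fell by small amounts. Of 22 nuclear genes 13 fell and none rose (median -0.26), and 3 fell without the libraries set apart (median -0.19): Sdhb, Ndufs3 and Ndufv1. Sdhb, the iron-sulphur subunit of succinate dehydrogenase, was at 146, 127, 116 and 134 TPM in homozygous mice, against 146, 159 and 185 TPM in wild-type mice, a difference of -0.31 ± 0.06 (SE, adjusted p = 4.7e-05). Within the shared lane numbers none of the 22 fell.

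Of the 13 protein genes of the mitochondrial genome, mt-Nd3 alone passed. This subunit of complex I (positions 9459 to 9806 of the mitochondrial genome) was at 3529, 7673, 3698 and 3743 TPM in homozygous mice, against 14163, 17289 and 17797 TPM in wild-type mice. It fell by 1.90 (SE 0.20, adjusted p = 8.3e-13), and the other 12 genes had differences between -0.19 and 0.34. The homozygous mice of 2, 4 and 18 months were low as well, at 4770 to 8859, 3519 to 8631 and 3419 to 4987 TPM, against 14879 to 23116, 14767 to 20744 and 15106 to 20432 TPM in wild-type mice of those ages. In hemizygous mice it was at 11726 to 25858 TPM at 2 months, 13086 to 18296 at 4 months, 4609 to 16722 at 8 months and 3133 to 7375 at 18 months.

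Tmem132b, a membrane protein of neurons, and Entpd4, a nucleotidase of the Golgi, were low in homozygous mice of every age too. Of all genes 1.09% fell at 2 months, 4.17% at 4 months and 1.55% at 18 months, and 0.951%, 10.2% and 7.4% rose. These shares and the differences below are with all libraries. Among homozygous mice, 1 of 4 libraries of 2 months and 3 of 4 libraries of 4 months were set apart in regional composition. Tmem132b was at 7.76, 6.12, 8.19 and 16.8 TPM in homozygous mice of 8 months, against 20.2, 25.9 and 30.8 TPM in wild-type mice (log2 difference -1.45 ± 0.19, SE, adjusted p = 8.7e-09). Its differences at 2, 4 and 18 months were -1.13, -2.03 and -1.97 (adjusted p = 0.00024, 8.4e-13 and 1.6e-11). Entpd4 was at 27.9, 20.1, 26.3 and 24.3 TPM in homozygous mice of 8 months, against 36.9, 48.5 and 60.1 TPM in wild-type mice, and fell by 0.94. It fell by 0.77, 0.56 and 0.88 at 2, 4 and 18 months (adjusted p = 1.8e-05, 0.00073 and 2.6e-07). Entpd4 has a near-identical copy on chromosome 14, so its level is uncertain.

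The remaining genes among those 16 were Mybpc1 (-1.80), Nov (-1.44), Tnnt2 (-1.39), Ldb2 (-1.38), Resp18 (-1.24), Ipcef1 (-1.18) and Aldh3a1 (-1.07). Nov, Tnnt2, Ipcef1 and Aldh3a1 did not pass without the libraries set apart (adjusted p = 0.10, 0.20, 0.069 and 0.10). Resp18, a protein of neuroendocrine vesicles, was at 47.1, 44.4, 46.7 and 57.2 TPM in homozygous mice, against 60.4, 114 and 168 TPM in wild-type mice. It passed without all libraries set apart (-1.02, adjusted p = 0.040) but not without mouse 452 alone (-1.2, adjusted p = 0.054). Mybpc1, a myosin-binding protein, was at 0.124, 0.858, 0.309 and 0.539 TPM in homozygous mice, against 2.01, 2.41 and 4.19 TPM in wild-type mice.

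**Figure D4:**
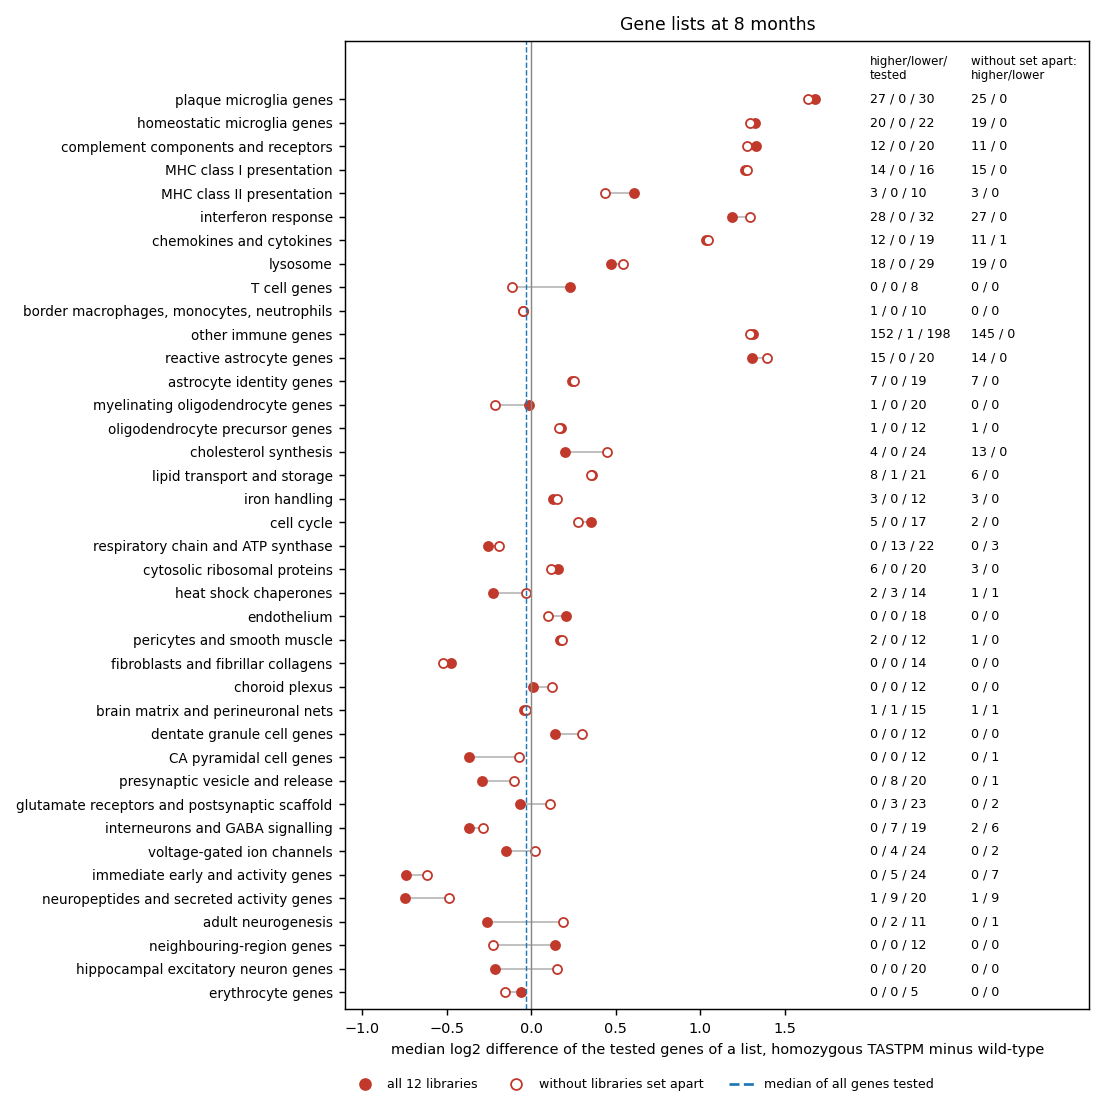
Median log2 difference, homozygous TASTPM minus wild-type at 8 months, of the tested genes of 39 lists, with all 12 libraries (filled) and without the libraries set apart (open), the median over all genes tested as a dashed line, and the numbers that rose and fell at the right. With all libraries 27 of 30 plaque microglia genes are higher and 9 of 20 neuropeptide genes lower, against 25 and 9 without those set apart, and 8 of 20 presynaptic genes are lower with all libraries, against 1 without.

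Homozygous mice were next compared with hemizygous mice of the same age, none of which was set apart. In homozygous mice 1300 genes were higher (5.95%) and 2487 lower (11.4%), and without the libraries set apart 1268 (5.8%) and 1346 (6.16%). The homozygous and hemizygous libraries shared no lane number, and with lane as a covariate in the fit of all libraries 569 genes were higher (2.6%) and 903 lower (4.13%). Plaque microglia genes were higher in 23 of 30 cases, reactive astrocyte genes in 15 of 20 and interferon genes in 17 of 32, and with lane as a covariate in 23, 13 and 13. Cst7 was higher by 2.34 (adjusted p = 6.0e-07), Gfap by 1.56 (adjusted p = 8.0e-07) and Vim by 2.00 (adjusted p = 6.4e-10). Against the same wild-type mice, hemizygous mice had differences of 4.62 in Cst7, 1.66 in Gfap and 0.06 in Vim, the last of which did not pass (adjusted p = 0.90). App and Thy1 did not differ past the threshold between homozygous and hemizygous mice with all libraries (-0.37 and 0.40, adjusted p = 0.32 and 0.35). Without those set apart Thy1 was higher by 0.70 (adjusted p = 0.037) and App had 0.12 (adjusted p = 0.72). With lane as a covariate in the fit of all libraries neither passed (Thy1 0.25, adjusted p = 0.71, and App -0.25, adjusted p = 0.68).

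Of 19 interneuron genes 8 were lower in homozygous than in hemizygous mice and none was higher (median -0.63), and 3 were lower with lane as a covariate (median -0.53). Sst was lower by 1.60 (adjusted p = 3.4e-05) and Crhbp by 1.77 (adjusted p = 1.3e-06), and in hemizygous mice their differences from wild-type were 0.29 and 0.02 and did not pass. Cort had -1.40 (adjusted p = 0.062) with all libraries and -1.53 (adjusted p = 0.00014) without those set apart. Of 24 immediate early genes 3 were higher and none lower in homozygous than in hemizygous mice, and Egr1 did not pass (0.64, adjusted p = 0.31). With lane as a covariate none of the 24 differed past the threshold. In hemizygous mice 14 of the 24 fell against wild-type (median -0.92), where 1.76% of all genes fell. Of 18 endothelial genes 14 were higher in homozygous than in hemizygous mice (median 0.60), while 10 fell in hemizygous mice against wild-type and none passed in homozygous mice. With lane as a covariate 6 were higher in homozygous than in hemizygous mice and 2 fell in hemizygous mice against wild-type. Erythrocyte genes moved the same way, 3 of 5 being higher in homozygous than in hemizygous mice (median 1.10) and 4 of 5 lower in hemizygous mice than in wild-type mice (median -1.16), and their part in the endothelial counts was not tested.

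Whether the differences from wild-type depended on age was tested as the difference at 18 months minus that at 8 months. It passed with a positive sign in 229 genes (1.05%) and a negative sign in 35 (0.16%). Without the libraries set apart it did in 317 (1.45%) and 451 (2.06%). The sign does not give the size: a gene that was low at 8 months and no longer low at 18 has a positive sign. No library of 18 months passed the score that set libraries apart. The homozygous ones scored 1.09, 0.88 and 1.48, however, near the threshold of 1.5, against -0.52 to 0.23 in wild-type mice of that age. The part of regional composition in the age comparison was not tested. No plaque microglia gene differed between the ages, Cst7 having 7.30 at 18 months and 6.96 at 8 (difference 0.35, adjusted p = 0.81). S1pr3 was further above wild-type at 18 months, by 1.0 (adjusted p = 0.0022), at 2.28 against 1.28. Ccl9, a chemokine of myeloid cells, was closer to wild-type, by -1.41 (adjusted p = 0.0040), at 0.56 against 1.97.

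Several lower genes of 8 months were not lower at 18 months. Vsnl1 had 0.08 at 18 months against -1.14 at 8 (difference 1.22, adjusted p = 0.0031), Pcsk1 0.66 against -1.29 (difference 1.95, adjusted p = 0.0031) and Adcyap1 0.89 against -1.81 (difference 2.69, adjusted p = 0.012). The difference between the ages passed without the libraries set apart in these 3 genes, at 0.75, 1.79 and 2.22 (adjusted p = 0.021, 0.0076 and 0.0091). Sst, Cort and Crhbp had -0.79, -1.86 and -1.16 at 18 months, and their difference between the ages did not pass (adjusted p = 0.59, 0.85 and 0.48). At 2 months Cort had -1.92 (adjusted p = 0.016), Sst -1.1 (adjusted p = 0.0092) and Crhbp -0.94 (adjusted p = 0.019). These values of 2 months are with all libraries, and 1 of the 4 homozygous libraries of that age was set apart.

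**Figure D5:**
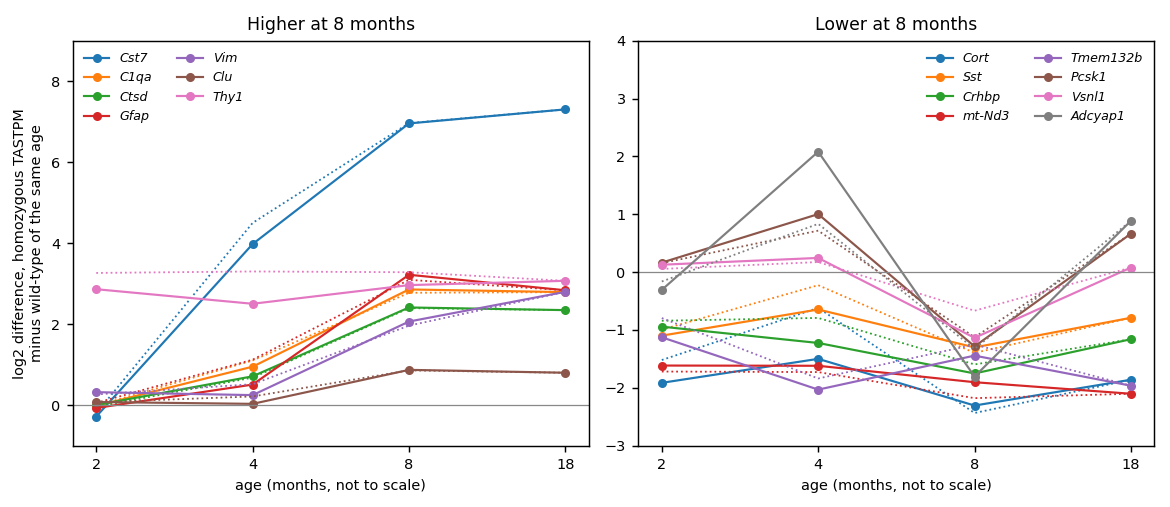
Log2 difference between homozygous TASTPM and wild-type mice of the same age at 2, 4, 8 and 18 months for 7 genes higher and 8 genes lower at 8 months, with all libraries (solid) and without libraries set apart (dotted, which leaves 1 of 4 homozygous mice at 4 months). Cst7 reaches 6.96 at 8 and 7.30 at 18 months, mt-Nd3 stays between -1.62 and -2.10 at every age, and Pcsk1 and Adcyap1 are below 0 at 8 months and at 0.66 and 0.89 at 18 months.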

How the data were processed

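RNA of the hippocampus of male mice was sequenced with 1 strand-specific library per mouse. The authors trimmed the reads with Trim Galore, quantified them with Salmon against GRCm38, summed transcripts to genes and deposited TPM values per gene, which hold no counts, so the depth of each library and its counting error are unknown and no count test was run. The table has 48526 genes, of which 26 had names turned into dates by a spreadsheet. Whether reads of the human APP transgene were assigned to mouse App was not tested, and the second transgene and a few genes of the lists are not reported here.

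From these TPM, limma 3.58.1 (R 4.3.3) was run on log2(TPM + 0.5), with 24 group means over all libraries (79 residual degrees of freedom), eBayes with a trend, two-sided tests and Benjamini-Hochberg adjustment over 21864 genes at 0.05. All groups share 1 estimate of the spread. The 4 homozygous and 8 wild-type mice are separate animals, with groups and lane numbers taken from the labels and column names. A lane number may cover more than 1 run. The test was checked on simulated data with independent noise in each gene and library. These held no shift in regional composition and no lane effect, so the check does not cover them.

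The members and gene lists were chosen with earlier results of these data known. Genes were named by a rule: among genes that passed, did not overlap between groups, reached 1 TPM in the higher group and had a gene symbol that is no model, clone or pseudogene name, the 12 with the largest rise, the 12 with the largest rise on no immune list and the 16 with the largest fall, with the 3 genes of smallest p in each list, App and Thy1. Other genes were picked after their values were seen, among them Npy, Tac1, Bdnf, Scg2, Pvalb, Entpd4, Slc14a1, Pdpn, Itgb5, Tgfbr2, Lif, A2m, Ucp2, Plce1, Penk, Adora2a, Prox1, Trem2, Apoe, Sqle, Ifit3, Bst2 and the list members named without a full set of values. Alternatives covered the pseudocount (0.1 and 1), filters on low values, scaling, groups in the fit, lane, library weights and leaving out libraries. Promoters came from RefSeq (GRCm38.p6).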

Additional observations from a re-analysis of the deposited data

Results flagged for a closer look

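In 31 of 350 group values, the highest or lowest mouse stood far from the others of its group, by its gap to the nearest value relative to the range of the group, past the 95% critical value of Dixon. Chance gives this in about 1 of 20 groups, and 20 of the 31 fell on the library labelled homozygous mouse 452. The genes examined include 30 picked after their values were seen, which hold 6 of those 20, so the share is no test against chance. Rgs9, Adora2a, Pde10a, Drd2, C1ql3, Fibcd1 and Spink8 are also genes of the score that set that library apart. That library was highest in Penk (1437 TPM), Rgs9 (238), Tac1 (225), Adora2a (181), Pde10a (166), Drd2 (68.6), Hbb-bs (606) and mt-Nd3 (7673). It was lowest in Thy1 (1791 TPM), App (532), Aspg (20.6), Sqle (14.6), Kcnc2 (8.90), Hapln4 (8.80), C1ql3 (4.54), Cxcl5 (3.22), Fibcd1 (2.14), Bdnf (1.79), Spink8 (0.654) and Aldh3a1 (0.0615). Homozygous mouse 451 was highest in Ttr (12278 TPM), Kcnj13 (111), Calml4 (83.7) and Ucp2 (81.1). Wild-type mouse 2417 was highest in Itgax (1.04 TPM), Cd52 (22.02), Lyz2 (22.6), Oas1g (0.747) and Lox (0.406) and lowest in Resp18 (60.4), and wild-type mouse 2342 was highest in Mir6975 (3.95).

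In 17 of the 175 named genes the difference from wild-type at 18 months and that at 8 months differed by limma's interaction test. Of all 21864 genes tested, 1.05% passed with a positive sign and 0.16% with a negative sign. On the log2 scale, 18 months minus 8 months, it was 4.50 in Trbc2, 2.73 in Mybpc1, 2.69 in Adcyap1, 2.55 in Tnnt2, 2.40 in Crh, 2.09 in Egr1, 1.95 in Pcsk1, 1.95 in Dusp1, 1.89 in Rbp4, 1.68 in Stmn1 and 1.68 in Aldh3a1. It was 1.22 in Vsnl1, 1.0 in S1pr3, 0.80 in Tubb3, 0.65 in Snap25, 0.52 in Hspa8 and -1.41 in Ccl9. The test shares the 8-month libraries with the comparison above. Many named genes were chosen for their large difference at 8 months in those libraries. Their share is therefore no test against that of all genes.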

How the results depend on the processing

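No paired analysis was possible because the labels give each mouse its own number and the groups share none. In a fit of the 2 groups alone 794 genes rose and 255 fell. With lane as a covariate in the fit of all libraries 1182 rose and 1074 fell. Within the 3 lane numbers that hold both groups (9 libraries) 550 rose and 69 fell. That fit had fewer samples and no lane term, and it kept mouse 452. Lists of higher genes lost calls in it too, with 23 of 30 plaque microglia, 17 of 22 homeostatic, 21 of 32 interferon and 12 of 20 reactive astrocyte genes. Without the libraries set apart 339 fell, and with library weights 795. Without them in a fit of the 2 groups alone 638 rose and 106 fell, an alternative chosen after seeing the data, as was leaving out only the 2 wild-type libraries set apart (1060 rose, 835 fell). Leaving out 1 library at a time, 1113 to 1369 genes rose and 424 to 1469 fell, with 424 without mouse 452. Against hemizygous mice 1346 genes were lower without the libraries set apart, and 968 to 2834 without 1 homozygous mouse, with 968 without mouse 452, and 569 were higher and 903 lower with lane as a covariate, an alternative also chosen after seeing the data. The difference at 18 months minus that at 8 months passed with a negative sign in 451 genes without the libraries set apart. It did so in 61, 148 and 65 genes without homozygous mouse 451, 452 and 454. A positive sign was found in 147 to 286 genes without 1 homozygous mouse, 147 without mouse 453. Of all calls 51.3% were higher with all libraries, and the share was 43.1% with a filter of mean log2 TPM over 1.5, 77.3% without the libraries set apart, 75.5% without mouse 452, 75.7% in a fit of the 2 groups alone, 66.0% with library weights, 85.8% without the libraries set apart in the fit of 2 groups and 88.9% within shared lane numbers. Over the 26 alternatives no named gene reversed, and of the 131 named genes that passed 79 did so in every setting that gave them a value. Depth is unknown in TPM, so genes near 0 carry an unknown counting error.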
